A study of Homo sapiens with 4 samples.

Results

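The genes described here are 35 genes of fatty acid and triglyceride synthesis, followed in Hey-A8 ovarian cancer cells that carried a hairpin directed at SPTLC2. They were chosen by name, as the rows of the gene table whose symbol is one of the 35, out of 58735 rows in all. Of the 35, 34 had enough reads to be tested, and PLIN2 was left out with 0 or 1 counts in each library. The genes cover the route in order, with 3 that supply acetyl-CoA or NADPH, 3 acetyl-CoA carboxylases and fatty acid synthase, 5 desaturases, 7 enzymes of chain elongation, 4 acyl-CoA synthetases, 9 enzymes of glycerolipid assembly, 3 proteins of lipid droplets and the regulator SREBF1.

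The study sequenced RNA of 2 shSPTLC2 libraries and 2 shCON libraries, all from Hey-A8 cells, an established human ovarian cancer line. The shSPTLC2 cells are labelled as a stable knockdown of SPTLC2, and the shCON cells as their negative control. The treatment protocol given with every library instead names GIPZ hairpins against ZDHHC15 and a scrambled hairpin, transfected transiently, with harvest at 36 h. The number of hairpins or clones is not stated, and nothing says that replicates are separate cultures, so the p-values reflect no more than how these 4 libraries vary.

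Cells make fatty acids from citrate in the cytosol: ATP citrate lyase releases acetyl-CoA, acetyl-CoA carboxylase turns it into malonyl-CoA, and fatty acid synthase builds palmitate from both. Desaturases and the elongation cycle of the endoplasmic reticulum then alter the chain, acyl-CoA synthetases activate it, and acyltransferases, lipins and diacylglycerol acyltransferases attach it to glycerol to form triglyceride, which is stored in droplets. Palmitoyl-CoA is also a substrate of serine palmitoyltransferase, which starts the sphingolipid route and has the SPTLC2 protein as a subunit, and many genes of this route are targets of the transcription factor SREBP1, the product of SREBF1.

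SPTLC2 had 39.9 and 43.1 CPM (counts-per-million, scaled by TMM) in the shSPTLC2 libraries and 58.7 and 60.7 CPM in the shCON libraries, with a log2 fold change of -0.52 ± 0.12 (SE; Benjamini-Hochberg adjusted p = 0.00627 in the quasi-likelihood F test of edgeR). Leaving out shSPTLC2 replicate 1 or shSPTLC2 replicate 2 ended that call, at -0.47 (adjusted p = 0.134) and -0.58 (adjusted p = 0.0519). ZDHHC15 had 0 counts in all libraries, which leaves room for up to 3 counts, or 0.195 to 0.204 CPM in the shSPTLC2 libraries and 0.202 to 0.206 CPM in the shCON libraries (counting error only). Total counts were 14464800 to 15085000 per library. Of 9 ovarian and epithelial markers, 7 were above 1 CPM and MUC16 and EPCAM were below it, with a sum of 2853 to 2892 CPM in shSPTLC2 and 2529 to 2622 CPM in shCON. PAX8 (0.73 ± 0.11, adjusted p = 0.000444) and MSLN (0.61 ± 0.16, adjusted p = 0.016) were higher in shSPTLC2. KRT7 and KRT18 were not called, with positive log2 fold changes. WT1, KRT8 and KRT19 were not called, with negative ones, and KRT8 was the largest part of the sum. MUC16 and EPCAM were not tested. The mesenchymal markers VIM, CDH2 and FN1 summed to 5669 to 6019 CPM in shSPTLC2 and 6078 to 6437 CPM in shCON. Of 4 adipocyte markers 0 were above 1 CPM, with ADIPOQ and LEP at 0 counts. The summed level of 3 endothelial markers was 109.8 to 132 CPM in shSPTLC2 and 58.6 to 60.2 CPM in shCON, nearly all of it CDH5 (109 and 130.3 CPM in shSPTLC2, 57.2 and 55.2 CPM in shCON). The other 2 ran the opposite way, PECAM1 with 0.408 and 0.782 CPM in shSPTLC2 and 2.09 and 1.85 CPM in shCON (-1.71 ± 0.46, adjusted p = 0.018) and VWF with 0.680 and 0.912 CPM in shSPTLC2 and 0.944 and 1.51 CPM in shCON (-0.61 ± 0.48, adjusted p = 0.403). Mitochondrially encoded transcripts took 10.1% and 8.56% of the counts in the shSPTLC2 libraries and 5.46% and 6.39% in the shCON libraries. The part of these differences in the results below was not tested, and fewer cells of a kind and less RNA per cell cannot be told apart in such libraries.

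Of the 34 tested genes, 13 changed between the groups, 8 higher and 5 lower in shSPTLC2, and 21 did not pass the test at an adjusted p under 0.05. The higher ones were the desaturases SCD5, FADS1 and FADS3, the elongation enzyme TECR, and AGPAT1, LPIN3, DGAT1 and DGAT2 of glycerolipid assembly. The lower ones were ACLY, ACACA, FASN and SCD, which act on the way from citrate to oleate, and the lipin LPIN2. ELOVL6, which extends palmitate on that way, did not pass the test. The 13 genes are 38.2% of those tested, beside 19.4% of all 15313 tested genes that were called. The 35 genes were chosen with earlier results of these data known, so such shares only describe the list. By direction, 23.5% of the 34 genes were higher, beside 10.4% of all genes, and 14.7% were lower, beside 9.00% of all genes. These genes are well expressed, and at a mean level of 10 CPM or more 12 of 30 (40.0%) were called, beside 24.2% of all such genes. The median log2 fold change over the 34 genes was 5e-04, and it was 0.0049 over all tested genes. For 22 of the 34 genes (64.7%) the CPM of the groups were free of overlap, a share near the 61.5% of all genes. With 2 libraries a group, an exact permutation test of a single value cannot go below p = 0.333, so the calls rest on the spread shared across all genes.

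**Figure D1:**
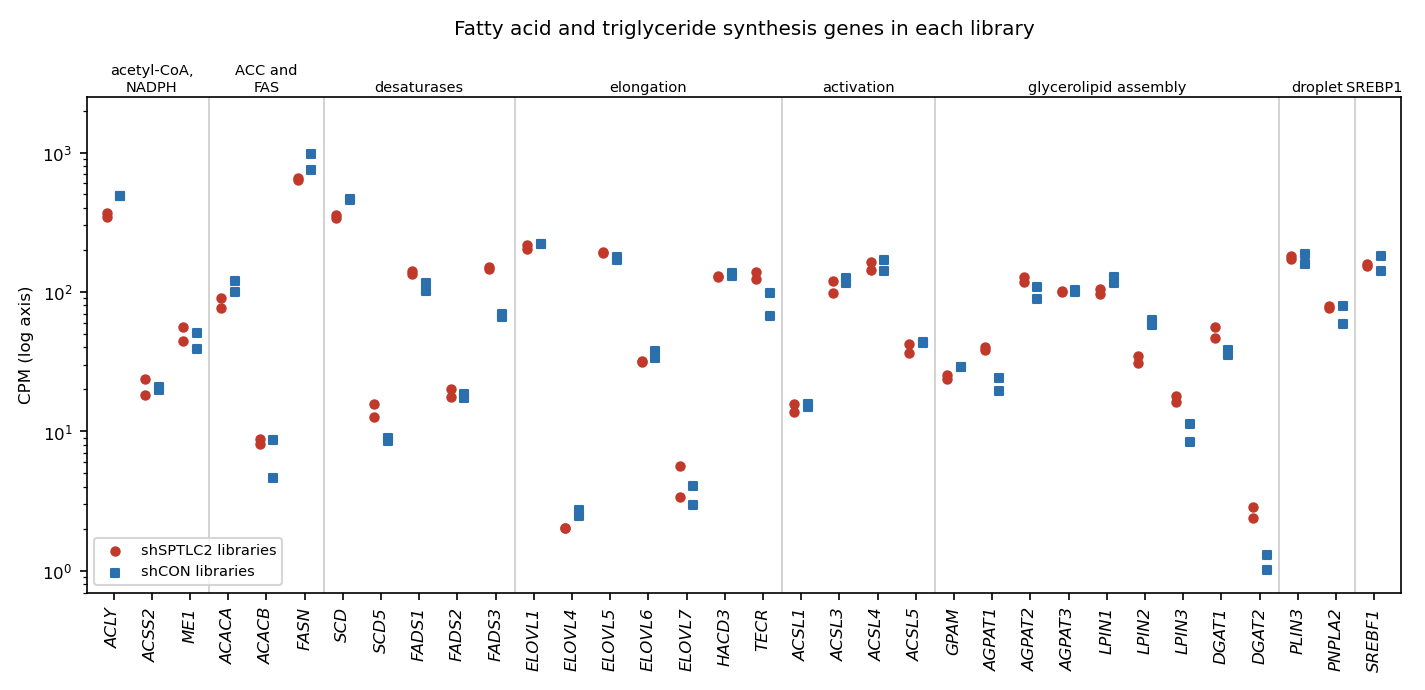
Level of each of the 34 tested genes in every library, in CPM on a log axis, with the shSPTLC2 libraries as circles left of the shCON libraries as squares and the genes ordered by role. FADS3, DGAT2, LPIN2 and AGPAT1 show the widest gaps between the groups, and most genes of elongation and acyl-CoA activation show overlapping or adjoining points.

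The calls depended on which libraries were in the fit. Without shSPTLC2 replicate 1, 3 of the genes were called (FADS3 and AGPAT1 higher, LPIN2 lower), beside 3.97% of all genes. Without shSPTLC2 replicate 2, 4 were called, the same 3 genes and DGAT1, beside 6.17% of all genes. Without shCON replicate 1, 14 were called, 10 of them among the 13, beside 24.8%, and without shCON replicate 2, 13 were called, 12 of them among the 13, beside 20.1%. FADS3, AGPAT1 and LPIN2 were called in all 13 alternatives that were run, and the other 10 genes lost the call in at least 1.

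**Figure D2:**
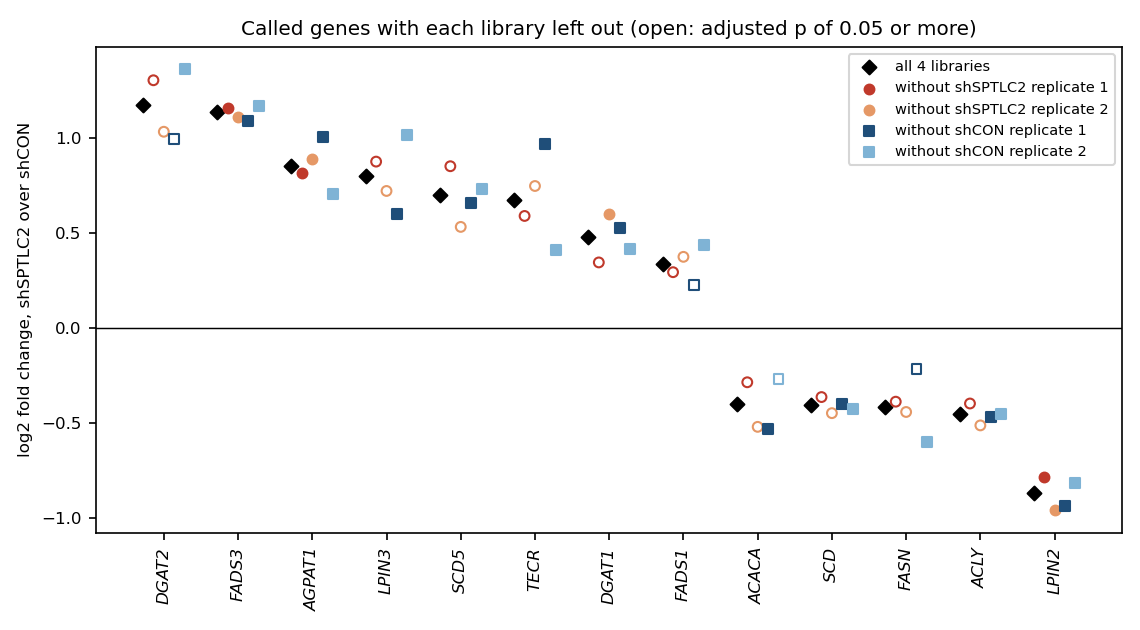
Log2 fold change of shSPTLC2 over shCON for the 13 called genes with all 4 libraries (diamonds) and with each library left out in turn, filled where the adjusted p stayed under 0.05 and open where it did not. FADS3, AGPAT1 and LPIN2 have filled points throughout, and every point stays on its own side of 0.

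Promoter windows of 4 called genes are shown for the higher and the lower gene with the smallest adjusted p (FADS3 and LPIN2) and for a pair of genes of the citrate-to-oleate steps that were lower together (ACLY and SCD). Each is a RefSeq window of 250 bases before to 50 bases after an annotated start on GRCh38.p14, written on the strand of the gene. Capitals mark the letters of CCAAT (the NF-Y motif), GGGCGG (Sp1) and CACGTG (an E-box), or their reverse complements, and TCACNCCAC, a sterol regulatory element sequence, was searched as well but is not in these 4 windows. The marked motifs do not overlap each other.
FADS3, chr11:61891496-61891795, minus strand: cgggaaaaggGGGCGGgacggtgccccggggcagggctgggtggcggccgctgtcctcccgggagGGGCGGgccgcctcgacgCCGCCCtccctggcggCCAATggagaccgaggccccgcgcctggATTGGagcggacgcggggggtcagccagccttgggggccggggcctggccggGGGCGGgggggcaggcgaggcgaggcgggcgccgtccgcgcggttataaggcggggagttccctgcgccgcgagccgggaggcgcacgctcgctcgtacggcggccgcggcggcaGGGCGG
LPIN2, chr18:3013095-3013394, minus strand: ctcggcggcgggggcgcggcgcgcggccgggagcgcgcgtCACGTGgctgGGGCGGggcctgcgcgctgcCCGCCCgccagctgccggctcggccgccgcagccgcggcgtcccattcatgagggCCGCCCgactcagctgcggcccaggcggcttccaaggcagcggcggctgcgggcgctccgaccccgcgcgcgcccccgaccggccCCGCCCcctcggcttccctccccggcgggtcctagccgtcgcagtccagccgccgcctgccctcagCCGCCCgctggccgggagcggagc
ACLY, chr17:41918973-41919272, minus strand: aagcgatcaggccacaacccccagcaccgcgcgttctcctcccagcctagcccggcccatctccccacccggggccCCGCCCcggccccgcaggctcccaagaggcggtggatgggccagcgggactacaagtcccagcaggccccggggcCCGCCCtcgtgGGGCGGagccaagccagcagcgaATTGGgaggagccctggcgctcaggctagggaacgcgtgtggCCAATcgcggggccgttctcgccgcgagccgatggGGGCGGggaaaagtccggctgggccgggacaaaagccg
SCD, chr10:100346983-100347282, plus strand: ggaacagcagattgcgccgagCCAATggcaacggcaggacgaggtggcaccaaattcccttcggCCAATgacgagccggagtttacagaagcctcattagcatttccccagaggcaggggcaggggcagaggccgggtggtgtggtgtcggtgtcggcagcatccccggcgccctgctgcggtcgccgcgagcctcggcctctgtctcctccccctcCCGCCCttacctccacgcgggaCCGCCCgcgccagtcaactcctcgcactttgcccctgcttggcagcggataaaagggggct

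In the SCD window CCAAT begins 229 and 186 bases before the start, and in the FADS3 window CCAAT begins 151 bases before it and its complement ATTGG 123 bases before it. The FADS3 window holds GGGCGG or its complement 5 times, as does the LPIN2 window shown, which also holds the E-box. Another LPIN2 window, chr18:3011898-3012197, holds none of the motifs searched. A GENCODE 29 transcript starts at the annotated start of that other window, and none starts at that of the shown LPIN2, FADS3 and SCD windows. The outermost GENCODE starts of SCD (chr10:100347124) and LPIN2 (chr18:3013315) do lie elsewhere within the windows shown. CCAAT or its complement is in windows of genes that were lower (ACLY, SCD) and of a gene that was higher (FADS3). RefSeq windows were matched for 31 of the 35 genes, 52 windows in all. None was matched for FASN, LPIN3, DGAT1 and DGAT2, which are among the called genes. CCAAT was found in 24 of these 52 windows (46.2%), beside 34.6% of all 35116 windows. GGGCGG was found in 38 (73.1%), beside 45.0% of all windows. CACGTG was found in 4 (7.69%; ELOVL4, ELOVL5, LPIN2 and PLIN2), beside 7.26% of all windows, and TCACNCCAC in 2 (3.85%; ACSL1 and PNPLA2), beside 1.13%. Windows of a gene can overlap, and a match of letters is a description of the sequence.

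Of 6 genes of acetyl-CoA or NADPH supply, carboxylation and fatty acid synthase, ACLY, ACACA and FASN fell in shSPTLC2 and 3 did not pass the test. Called shares were 33.3% of the 3 supply genes and 66.7% of the other 3, beside 19.4% of all genes. ACLY (ENSG00000131473, hg38 chr17:41866908-41930542), ATP citrate lyase, had 343 and 370.3 CPM in the shSPTLC2 libraries and 485 and 491 CPM in the shCON libraries. Both shSPTLC2 libraries lay below both shCON libraries, with a log2 fold change of -0.45 ± 0.11 (SE; adjusted p = 0.008, from the same edgeR test over all genes as every adjusted p below). FASN (ENSG00000169710, chr17:82078333-82098332), fatty acid synthase, had 636 and 659 CPM in shSPTLC2 and 978 and 748 CPM in shCON. Its shSPTLC2 libraries were close together and below both shCON libraries, which differed by 1.31-fold from each other, and its log2 fold change was -0.41 ± 0.13 (adjusted p = 0.0332). ACACA (ENSG00000278540, chr17:37084988-37406818), the cytosolic acetyl-CoA carboxylase that sets the pace of synthesis, had 76.7 and 90.1 CPM in shSPTLC2 and 99.9 and 119.7 CPM in shCON. The groups did not overlap, and the log2 fold change was -0.40 ± 0.12 (adjusted p = 0.0324).

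The other genes of these steps did not pass the test. ACACB, the carboxylase of the mitochondrial surface, had 8.84 and 8.15 CPM in shSPTLC2 and 4.65 and 8.65 CPM in shCON, with overlapping groups (0.35 ± 0.26, adjusted p = 0.362). ACSS2, which makes acetyl-CoA from acetate, had 18.2 and 23.9 CPM in shSPTLC2 and 20.8 and 19.8 CPM in shCON. ME1, malic enzyme, a source of NADPH, had 44.7 and 56.4 CPM in shSPTLC2 and 50.9 and 38.9 CPM in shCON. Their log2 fold changes were 0.05 ± 0.15 (ACSS2) and 0.17 ± 0.15 (ME1), both with overlapping groups. ME1 passed when shCON replicate 1 was left out (0.37, adjusted p = 0.0383), and ACACB when shCON replicate 2 was (0.86, adjusted p = 0.0106). Per length, FASN and ACLY were among the most abundant of the 35 genes, with means of 68.5 and 67.7 FPKM in shSPTLC2 and 91.9 and 93.2 FPKM in shCON, whereas ACACA had 6.35 FPKM in shSPTLC2 and 8.41 FPKM in shCON. Leaving out shSPTLC2 replicate 1 and then shSPTLC2 replicate 2, the log2 fold change was -0.40 and -0.51 for ACLY (adjusted p = 0.181 and 0.0724), -0.39 and -0.44 for FASN (0.285 and 0.186) and -0.29 and -0.52 for ACACA (0.367 and 0.0789). With GC content offsets FASN was further below shCON, at -0.68 (adjusted p = 0.00138). FASN also lost the call without shCON replicate 1 (-0.22, adjusted p = 0.12), and ACACA without shCON replicate 2 (-0.27, adjusted p = 0.0941), with GC content offsets (-0.30, adjusted p = 0.0761) and, like FASN (-0.36, adjusted p = 0.0634), with scaling by library totals (-0.34, adjusted p = 0.0599).

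The desaturases split, with SCD lower and SCD5, FADS1 and FADS3 higher in shSPTLC2. The called share was 80% of the 5 desaturases, beside 19.4% of all genes. FADS3 (ENSG00000221968, chr11:61873519-61892051), a neighbour of FADS1 and FADS2 on the chromosome whose product adds a double bond to sphingoid bases, had 146 and 151 CPM in the shSPTLC2 libraries and 65.8 and 69.4 CPM in the shCON libraries. Replicates lay within a few CPM of each other and far from the other group, and the log2 fold change of 1.13 ± 0.11 (adjusted p = 8.85e-06) ran from 1.04 to 1.19 over the alternatives. FADS1 (ENSG00000149485), the delta-5 desaturase of polyunsaturated fatty acids, had 142 and 134 CPM in shSPTLC2 and 101.5 and 117 CPM in shCON. The groups were apart, by less than for FADS3, with a log2 fold change of 0.34 ± 0.11 (adjusted p = 0.0434). FADS2, the delta-6 desaturase, had 20.2 and 17.6 CPM in shSPTLC2 and 18.6 and 17.4 CPM in shCON and did not pass the test (0.07 ± 0.15).

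SCD (ENSG00000099194, chr10:100347124-100364834), the stearoyl-CoA desaturase that makes oleate, had 338 and 358 CPM in shSPTLC2 and 465 and 456 CPM in shCON. Replicates of each group were close and the groups apart, with a log2 fold change of -0.40 ± 0.10 (adjusted p = 0.0141). SCD5 (ENSG00000145284), the second human stearoyl-CoA desaturase, had 12.7 and 15.8 CPM in shSPTLC2 and 8.57 and 8.99 CPM in shCON. Its groups did not overlap either, and its log2 fold change had the opposite sign, 0.70 ± 0.18 (adjusted p = 0.0131). Without shSPTLC2 replicate 1 and replicate 2 in turn the values were -0.36 and -0.45 for SCD (adjusted p = 0.22 and 0.113), 0.85 and 0.53 for SCD5 (0.0524 and 0.193) and 0.29 and 0.38 for FADS1 (0.322 and 0.171). SCD also lost the call with the replicate block and GC content offsets together (-0.31, adjusted p = 0.0749). FADS1 also lost the call without shCON replicate 1 (0.23, adjusted p = 0.138) and in DESeq2 (0.33, adjusted p = 0.0683).

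Because FPKM are per length, they can be compared between the genes of a family. Within the summed FADS1, FADS2 and FADS3 level, FADS3 held 59.7% and 62.0% in the shSPTLC2 libraries and 47.4% and 45.9% in the shCON libraries. FADS1 held 35.6% and 33.8% of it in shSPTLC2 and 44.9% and 47.5% in shCON, although its own level was higher in shSPTLC2, since the sum was 38.5 and 38.3 FPKM in shSPTLC2 and 22.1 and 23.9 FPKM in shCON. SCD5 held 4.49% and 5.24% of the SCD and SCD5 sum in shSPTLC2 and 2.25% and 2.40% in shCON, so SCD made up nearly all of it in every library.

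**Figure D3:**
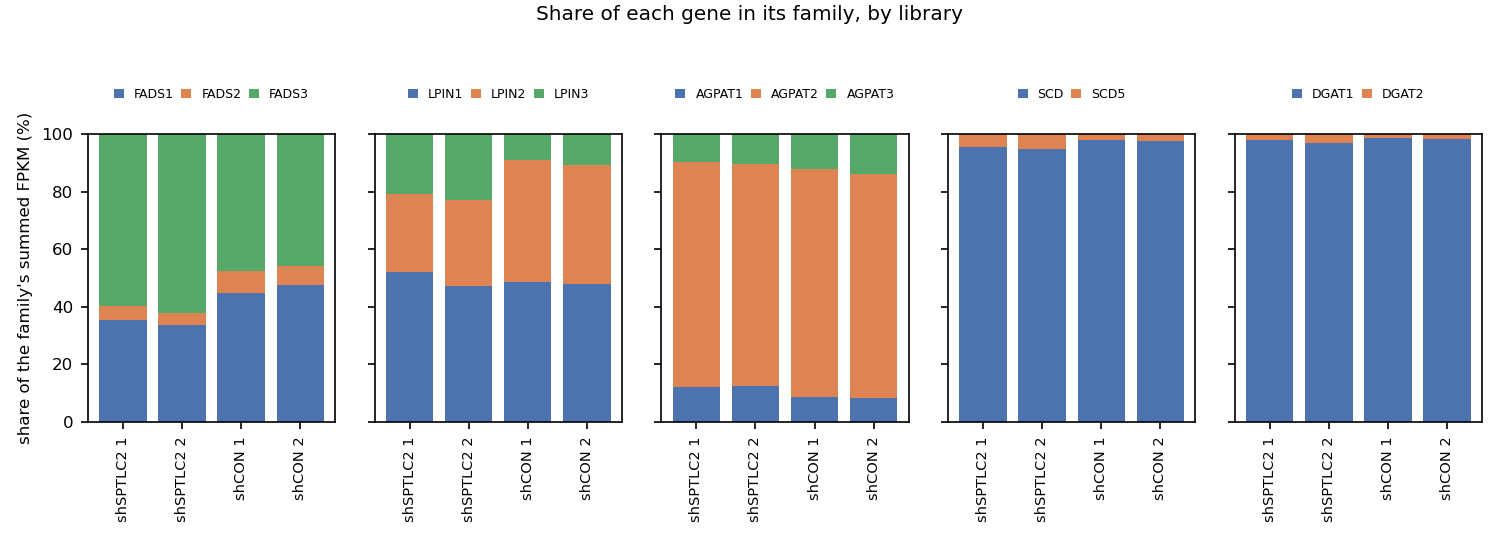
Share of each gene in the summed FPKM of its family, in percent, for each library, with the shSPTLC2 libraries left of the shCON libraries in every panel. FADS3 takes a larger share in the shSPTLC2 libraries, LPIN3 takes a larger and LPIN2 a smaller one, and SCD and DGAT1 make up nearly all of their families in all 4 libraries.

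Of the 7 genes of chain elongation, TECR rose and 6 did not pass the test, a called share of 14.3% beside 19.4% of all genes. TECR (ENSG00000099797), the trans-enoyl-CoA reductase that ends each elongation cycle, had 139 and 124 CPM in the shSPTLC2 libraries and 98.2 and 66.7 CPM in the shCON libraries. The groups did not overlap, but the shCON libraries differed by 1.47-fold, the second widest gap within shCON among the 34 genes. Its log2 fold change was 0.67 ± 0.16 (adjusted p = 0.0132). It was 0.97 when shCON replicate 1 was left out and 0.41 when shCON replicate 2 was, and the call was lost when shSPTLC2 replicate 1 (0.59, adjusted p = 0.162) or shSPTLC2 replicate 2 (0.75, adjusted p = 0.0652) was left out. The pseudogene TECRP1, whose reads may be hard to tell from those of TECR, had 25 and 24 counts in shSPTLC2 and 23 and 7 counts in shCON.

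The elongases, which carry out the condensing step, gave no call in edgeR, DESeq2 or limma-voom, and none of the 5 had an unadjusted p under 0.05. ELOVL1, which extends very long saturated chains used in sphingolipids, was the highest of the 35 genes per length and had 217 and 203 CPM in shSPTLC2 and 222 and 223 CPM in shCON (-0.08 ± 0.10, adjusted p = 0.604). ELOVL6, which extends palmitate, had 31.9 and 31.4 CPM in shSPTLC2 and 38.0 and 33.7 CPM in shCON (-0.18 ± 0.13, adjusted p = 0.348). ELOVL5, which extends polyunsaturated chains, had 194 and 189 CPM in shSPTLC2 and 178 and 170.3 CPM in shCON (0.14 ± 0.10, adjusted p = 0.37). In these 3 genes the groups lay side by side without overlap at differences too small to pass. ELOVL4 and ELOVL7 were low. ELOVL4 had 2.04 and 2.02 CPM in shSPTLC2 and 2.50 and 2.75 CPM in shCON, without overlap (-0.37 ± 0.33). ELOVL7 had 3.40 and 5.67 CPM in shSPTLC2 and 4.05 and 2.95 CPM in shCON, with overlap (0.38 ± 0.30). HACD3, a dehydratase of the cycle, had 128 and 129 CPM in shSPTLC2 and 137 and 131 CPM in shCON, without overlap (-0.06 ± 0.10).

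None of the 4 acyl-CoA synthetases passed the test in edgeR, DESeq2 or limma-voom or had an unadjusted p under 0.05, with edgeR log2 fold changes of -0.15 (ACSL3), -0.14 (ACSL5), -0.06 (ACSL1) and -0.03 (ACSL4) and adjusted p of 0.387 to 0.883. ACSL4, which prefers arachidonate, had 144 and 163 CPM in shSPTLC2 and 171 and 142 CPM in shCON. ACSL3, found on nascent lipid droplets, had 98.1 and 119.6 CPM in shSPTLC2 and 127 and 115.5 CPM in shCON. Groups overlapped for both and for ACSL1, which had 13.7 and 15.7 CPM in shSPTLC2 and 15.8 and 14.9 CPM in shCON, while ACSL5 had 42.6 and 36.4 CPM in shSPTLC2 and 43.9 and 43.0 CPM in shCON.

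Of the 9 genes that assemble glycerolipids, 4 rose, LPIN2 fell and 4 did not pass the test. The called share was 55.6%, beside 19.4% of all genes. GPAM, the mitochondrial acyltransferase that starts the route, had 25.4 and 23.6 CPM in shSPTLC2 and 28.9 and 29.1 CPM in shCON (-0.25 ± 0.13, adjusted p = 0.201). AGPAT1 (ENSG00000204310, chr6:32168212-32178096), an acyltransferase that makes phosphatidic acid, had 40.4 and 38.4 CPM in the shSPTLC2 libraries and 24.1 and 19.5 CPM in the shCON libraries. The groups were well apart, with a log2 fold change of 0.85 ± 0.14 (adjusted p = 0.000759). Its exons share 29.9% of their length with genes of the opposite strand, and whether the counting used strand is not given in the sources used here. The overlapping EGFL8 had 17 and 16 counts in shSPTLC2 and 9 and 19 counts in shCON, and PPT2-EGFL8 31 and 11 counts in shSPTLC2 and 3 and 13 counts in shCON. AGPAT2, the most abundant of these acyltransferases per length, had 127 and 118 CPM in shSPTLC2 and 109 and 89.0 CPM in shCON and did not pass (0.31 ± 0.12, adjusted p = 0.0731), although it did without shCON replicate 1 (0.46, adjusted p = 0.0011) and with library totals (0.37, adjusted p = 0.0426). With GC content offsets the AGPAT2 difference was 0.0252 (adjusted p = 0.889). AGPAT3 had 100.9 and 99.6 CPM in shSPTLC2 and 103 and 99.6 CPM in shCON, the smallest difference of the 9.

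The lipins, phosphatidic acid phosphatases that make diacylglycerol and also act in the nucleus as coregulators, differed in direction. LPIN2 (ENSG00000101577, chr18:2916994-3013315) had 31.0 and 34.9 CPM in the shSPTLC2 libraries and 57.7 and 62.7 CPM in the shCON libraries. Both shSPTLC2 libraries were far below both shCON libraries, with a log2 fold change of -0.87 ± 0.12 (adjusted p = 0.000306). LPIN3 (ENSG00000132793, chr20:41340920-41360582) had 16.3 and 18.1 CPM in shSPTLC2 and 8.43 and 11.3 CPM in shCON. Its groups did not overlap and its log2 fold change was 0.80 ± 0.18 (adjusted p = 0.00567). LPIN1 had 105.3 and 97.0 CPM in shSPTLC2 and 117 and 128 CPM in shCON, without overlap and without passing the test (-0.27 ± 0.11, adjusted p = 0.0889; -0.35 and 0.0132 without shCON replicate 1). Per length, LPIN2 held 26.8% and 29.7% of the summed lipin level in shSPTLC2 and 42.1% and 41.1% in shCON, and LPIN3 held 20.9% and 22.9% in shSPTLC2 and 9.15% and 11.0% in shCON. LPIN1 was the largest share in every library. LPIN3 lost its call when shSPTLC2 replicate 1 (0.88, adjusted p = 0.0566) or shSPTLC2 replicate 2 (0.72, adjusted p = 0.0825) was left out.

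DGAT1 and DGAT2, unrelated enzymes that both complete triglyceride, were higher in shSPTLC2. DGAT1 (ENSG00000185000) had 56.0 and 46.9 CPM in shSPTLC2 and 38.3 and 35.5 CPM in shCON. The groups did not overlap, with a log2 fold change of 0.48 ± 0.13 (adjusted p = 0.0169). DGAT2 (ENSG00000062282) was detected by 35 and 44 counts in the shSPTLC2 libraries and 15 and 19 counts in the shCON libraries, which are 2.38 and 2.87 CPM in shSPTLC2 and 1.01 and 1.304 CPM in shCON. Its log2 fold change of 1.18 ± 0.38 (adjusted p = 0.0392) carried the widest error of the 13 called genes, and it made up 2.17% and 3.10% of the DGAT1 and DGAT2 level per length in shSPTLC2 and 1.36% and 1.88% in shCON. DGAT1 lost its call when shSPTLC2 replicate 1 was left out (0.35, adjusted p = 0.267) and with GC content offsets (0.26, adjusted p = 0.141), and the DGAT2 call without shSPTLC2 replicate 1 (1.304, adjusted p = 0.141), shSPTLC2 replicate 2 (1.03, adjusted p = 0.242) and shCON replicate 1 (0.996, adjusted p = 0.117). DGAT1 exons share 10.9% of their length with genes on the same strand, among them AC233992.1, which had 0 counts in all libraries. They overlap those of HSF1 on the opposite strand over 3.4% of their length, and HSF1 was itself higher in shSPTLC2 (0.37 ± 0.12, adjusted p = 0.042).

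**Figure D4:**
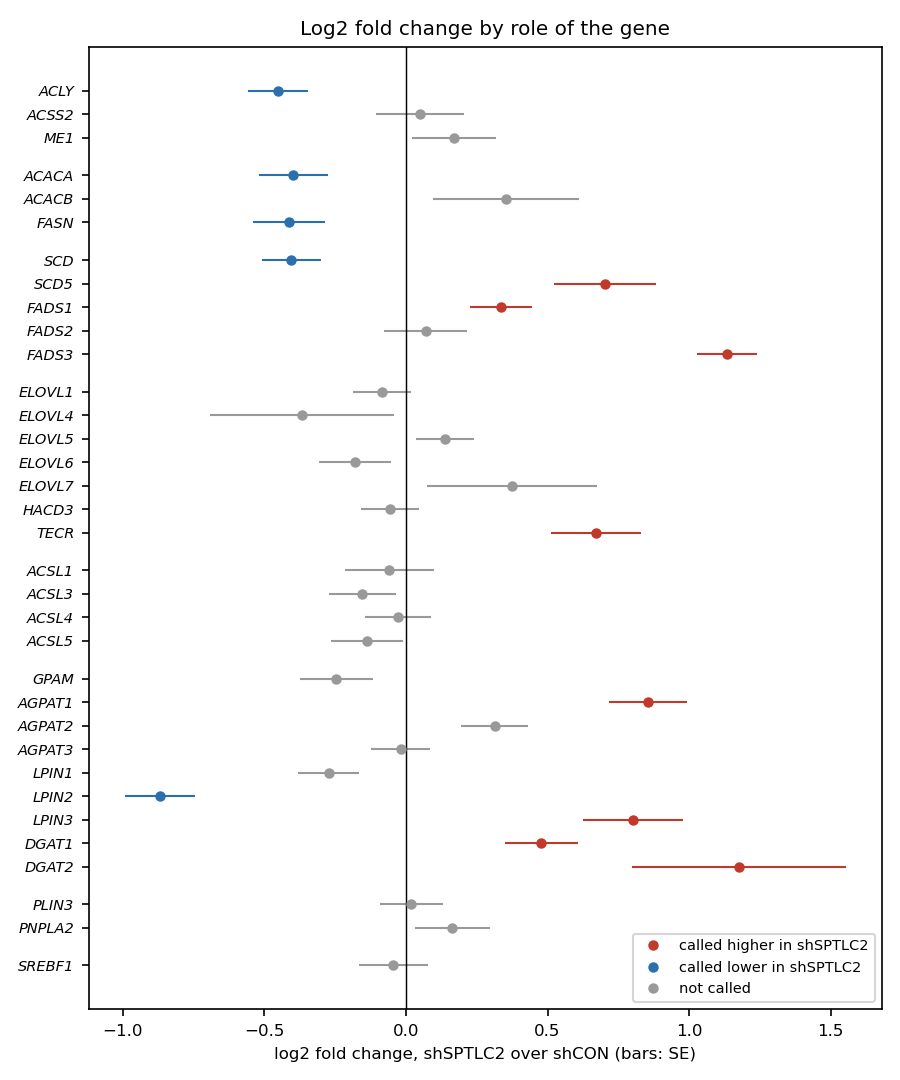
Log2 fold change of shSPTLC2 over shCON for the 34 tested genes, with bars of 1 SE, grouped from top to bottom by role from acetyl-CoA supply to SREBF1. ACLY, ACACA, FASN and SCD lie between -0.45 and -0.40, LPIN2 lies at -0.87, and the higher genes run from 0.34 (FADS1) to 1.18 (DGAT2).

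The genes of lipid droplets and the regulator gave no call in edgeR, DESeq2 or limma-voom, and none of them had an unadjusted p under 0.05. PLIN3, a droplet coat protein, had 171 and 181 CPM in shSPTLC2 and 189 and 159 CPM in shCON (0.02 ± 0.11). PNPLA2, the lipase that begins triglyceride breakdown, had 79.0 and 77.1 CPM in shSPTLC2 and 80.0 and 59.3 CPM in shCON (0.16 ± 0.13, adjusted p = 0.42; 0.39 and 0.0138 without shCON replicate 1). Both had overlapping groups. PLIN2, the coat protein that most cells use on droplets, is listed with 0 counts in both shSPTLC2 libraries and 0 and 1 counts in the shCON libraries. Whether all of its reads were assigned to it in the counting is not known, so the zeros are no measure of absence. Its neighbours were read, HAUS6 with 985 and 1010 counts in shSPTLC2 and 853 and 762 counts in shCON, and RRAGA with 641 and 777 counts in shSPTLC2 and 857 and 644 counts in shCON. SREBF1 had 159 and 155 CPM in shSPTLC2 and 182 and 141 CPM in shCON, with overlapping groups and a log2 fold change of -0.04 ± 0.12 (adjusted p = 0.83), a measure of its transcript and not of the processed SREBP1 protein.

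Another 90 genes of the same pathways, in 6 lists, were read from the same fit, and 65 of them were tested. Of these 65, 9 were higher, 8 were lower and 48 did not pass the test, a called share of 26.2% beside 19.4% of all genes, with a median log2 fold change of 0.12. By list, the called shares were 25% (transcriptional control), 40% (acetyl-CoA and NADPH supply), 50% (uptake and binding) and 22.2% (glycerolipid assembly). They were 16.7% for droplets and lipolysis, and also 16.7% for elongation, desaturation and mitochondrial synthesis. In transcriptional control, 3 of 16 tested genes were higher, 1 lower and 12 not called. INSIG1, which holds SREBPs in the endoplasmic reticulum and is itself an SREBP target, had 40.8 and 45.0 CPM in shSPTLC2 and 90.03 and 74.3 CPM in shCON. It was lower in both shSPTLC2 libraries (-0.94 ± 0.13, adjusted p = 0.000189) and called in every alternative. PPARGC1B, a coactivator of SREBP1, had 27.0 and 22.9 CPM in shSPTLC2 and 12.5 and 14.6 CPM in shCON (0.88 ± 0.15, adjusted p = 0.00129, and 0.0526 without shSPTLC2 replicate 1). SCAP, the escort of SREBPs, had 135 and 132.5 CPM in shSPTLC2 and 112 and 89.3 CPM in shCON (0.41 ± 0.12, adjusted p = 0.026), and the remaining gene called there was MLX, the partner of the carbohydrate-response factors (0.36 ± 0.12, adjusted p = 0.0428). MLXIPL, which encodes such a factor, had 4 and 0 counts in shSPTLC2 and 1 and 3 counts in shCON and was not tested. The SCAP call ended without shSPTLC2 replicate 1, shSPTLC2 replicate 2 or shCON replicate 2 (adjusted p = 0.215, 0.154 and 0.123) and with GC content offsets (0.27, adjusted p = 0.107). The MLX call ended without shSPTLC2 replicate 1, shSPTLC2 replicate 2 or shCON replicate 1 (adjusted p = 0.401, 0.0988 and 0.0514), in DESeq2 (adjusted p = 0.0778) and in limma-voom (adjusted p = 0.0505).

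In the supply of acetyl-CoA and NADPH, 1 of 10 tested genes was higher and 3 were lower. The mitochondrial acetyl-CoA synthetase gene ACSS1 had 15.03 and 12.97 CPM in shSPTLC2 and 7.49 and 6.80 CPM in shCON (0.97 ± 0.18, adjusted p = 0.00219). PGD, an NADPH-making enzyme of the pentose phosphate pathway, was lower at 115 and 114 CPM in shSPTLC2, against 158 and 166 CPM in shCON (-0.49 ± 0.10, adjusted p = 0.00406). ACSS3 (-0.998 ± 0.25) and the pyruvate dehydrogenase subunit gene PDHB (-0.46 ± 0.12) were the other lower genes. All 4 lost the call without shSPTLC2 replicate 1, with adjusted p of 0.0645 (ACSS1), 0.0912 (PGD), 0.11 (ACSS3) and 0.16 (PDHB), and PGD, ACSS3 and PDHB also without shSPTLC2 replicate 2 (adjusted p = 0.0713, 0.0809 and 0.104).

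In fatty acid uptake and binding, 2 of 6 tested genes were higher and 1 was lower. SLC27A1, a fatty acid transport protein, had 32.3 and 35.4 CPM in shSPTLC2 and 22.2 and 18.7 CPM in shCON (0.73 ± 0.14, adjusted p = 0.00228) and was called in every alternative. The related SLC27A3 was higher as well (0.78 ± 0.25, adjusted p = 0.0361), and the fatty acid binding protein gene FABP5 was lower at 44.3 and 46.2 CPM in shSPTLC2, against 66.2 and 85.7 CPM in shCON (-0.75 ± 0.13, adjusted p = 0.00141). FABP5 lost the call without shSPTLC2 replicate 1 (adjusted p = 0.0566) and SLC27A3 there (0.136), when shSPTLC2 replicate 2 was left out (0.215) and when shCON replicate 2 was (0.0569). SLC27A3 also lost it in DESeq2 (adjusted p = 0.115) and with GC content offsets (adjusted p = 0.0768).

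In glycerolipid assembly outside the 35 genes, 1 of 9 tested genes was higher and 1 was lower. AGPAT4, an acyltransferase of the same family as AGPAT1, had 47.9 and 49.2 CPM in shSPTLC2 and 22.7 and 27.6 CPM in shCON (0.95 ± 0.13, adjusted p = 0.000275) and was called in every alternative. GPAT3, a glycerol-phosphate acyltransferase of the endoplasmic reticulum, had 7.00 and 4.63 CPM in shSPTLC2 and 10.2 and 9.88 CPM in shCON (-0.79 ± 0.22, adjusted p = 0.0225, and 0.246 without shSPTLC2 replicate 2). Of 12 tested genes of droplets and lipolysis, 2 were lower and 10 were not called. G0S2, an inhibitor of the lipase encoded by PNPLA2, had 663 and 665 CPM in shSPTLC2 and 889 and 1151 CPM in shCON (-0.62 ± 0.13, adjusted p = 0.00365), and MGLL, monoglyceride lipase, had 257 and 242 CPM in shSPTLC2 and 321 and 333 CPM in shCON (-0.39 ± 0.10, adjusted p = 0.016). Neither was called without shSPTLC2 replicate 1 (adjusted p = 0.0956 and 0.142) or shSPTLC2 replicate 2 (adjusted p = 0.0647 and 0.204). Of 12 other genes of elongation, desaturation and mitochondrial synthesis, 2 were higher, ELOVL2 (0.50 ± 0.16, adjusted p = 0.0384) and HACD4 (0.52 ± 0.14, adjusted p = 0.0182), and neither was called without shSPTLC2 replicate 1 (adjusted p = 0.267 and 0.107) or replicate 2 (0.129 and 0.163), nor ELOVL2 without shCON replicate 2 (0.2). Neither was called in DESeq2 (adjusted p = 0.0942 for ELOVL2 and 0.0507 for HACD4), nor HACD4 with GC content offsets (adjusted p = 0.0564).

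Median GC content was higher in the genes called higher than in those called lower or not called. The 8 higher genes had a median transcript GC content of 57.3%, the 5 lower genes 49.1% and the 21 genes not called 46.1%. The 5 lower genes ran from 47.1% to 65.3%, and the 8 higher genes from 48.7% to 63.4%. Over all genes the medians were 55.2% for those called higher, 48.1% for those called lower and 48.8% for all tested. With offsets that remove the trend of fold change on GC content, 11 of the 13 genes were still called, beside 18.9% of all genes. Of these 11, 7 were higher and 4 lower, and ACACA and DGAT1 lost the call. The offsets lowered the log2 fold change of FASN (65.3% GC) from -0.41 to -0.68 and of DGAT1 (63.4% GC) from 0.48 to 0.26. They raised that of SCD (47.1% GC) from -0.40 to -0.31 and of SCD5 (48.7% GC) from 0.70 to 0.80.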

How the data were processed

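RNA of 2 shSPTLC2 and 2 shCON libraries of Hey-A8 cells was made into libraries with an NEBNext Ultra RNA kit (per the labels). The deposited count table holds whole-number read counts for 58735 Ensembl genes. The deposited FPKM table holds the same counts per base of gene and per library (they differ from that ratio by a relative 1e-09 at most) and served for levels between genes. Per the submitters' processing notes the tools were HISAT2, StringTie and SAMtools and the build hg38. How reads were counted, and with which strand setting, is not given in the sources used here. In GENCODE 29, 7 of the 35 genes share exon sequence with a gene on the same strand and 15 with a gene on the opposite strand, and their counts may hold reads of that neighbour.

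Counts of all 4 libraries were fitted in R 4.3.3 with edgeR 4.0.16 (filterByExpr with minimum count 10 and total 15, TMM scaling, robust quasi-likelihood F test, two-sided, no covariates). P-values were adjusted by Benjamini-Hochberg over the 15313 tested genes, and calls needed an adjusted p below 0.05. A positive log2 fold change means higher in shSPTLC2, and the SE is its size divided by the square root of F. Alternatives were DESeq2 1.42.0, limma-voom (limma 3.58.1), other scalings and filters, GC content offsets, a replicate block and leaving out each library. The scripts were tested on simulated counts.

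The groups follow the titles. Libraries of a group had Pearson correlations of log2 CPM of 0.993 (shSPTLC2) and 0.99 (shCON), across genes, which are not independent replicates, and more genes than sampling noise gives (28.4% and 36.7%, chi-square p below 0.05) differed between them, so each counts as a library of its own. Precision depended on the total counts of 14464800 to 15085000 and on the spread between libraries. The 35 genes, the other pathway lists and the tests were chosen with earlier results of these data known. The text names all 35 genes, SPTLC2 and ZDHHC15, INSIG1, SCAP and MLXIPL, and up to 3 called genes with the smallest adjusted p from each other list. MLX and PDHB, the antisense and neighbouring genes, and the pseudogene were named outside that rule after their values were seen.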

Additional observations from a re-analysis of the deposited data

How the results depend on the processing

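Under all 13 alternatives FADS3, AGPAT1 and LPIN2 of the 35 genes, and INSIG1, AGPAT4 and SLC27A1 of the other lists, stayed called in the same direction, and all 13 called genes kept their sign. The 13 calls became 12 with library totals (9 higher, 3 lower; 19.3% of all genes called), 13 without a filter on low counts (11% of all genes) and 11 in DESeq2 (14% of all genes), where FADS1 lost its call, DGAT2 had no adjusted p and 5 other pathway genes were called higher. Library totals moved the median of all genes by 0.05 log2 and made 65.1% of all calls higher, against 53.6% with TMM. The labels do not say whether replicate numbers pair the libraries. The correlation of deviations of equal numbers was -0.0179, which cannot settle it with 2 libraries a group. With the replicate block 3307 genes (21.6% of all) and 14 of the 34 were called (9 higher, 5 lower, with AGPAT2 added). The block with GC content offsets left 7 higher and 3 lower, beside 19.7% of all genes called. It also ended the SCAP call (0.28, adjusted p = 0.0886) and the SLC27A3 call (0.65, adjusted p = 0.0852). Genes that were not called changed sign near 0. With GC content offsets, alone and with the block, the log2 fold change was 0.0204 and 0.0208 (HACD3), 0.0319 and 0.0306 (ACSL1), -0.0742 and -0.0702 (PLIN3), and -0.0961 and -0.0886 (PNPLA2). With library totals it was 0.0239 (ACSL4), 0.036 (AGPAT3) and 0.0088 (SREBF1). Leaving out each library gave 413 to 1977 genes called higher and 227 to 2050 lower, 2 to 9 and 1 to 5 of the 35 genes, 2 to 13 and 2 to 10 of the other pathway genes, and -0.58 to -0.47 for SPTLC2. The same fits gave ranges across 0 of -0.16 to 0.23 (ACSS2), -0.0158 to 0.37 (ME1), -0.0355 to 0.86 (ACACB), -0.0311 to 0.16 (FADS2), -0.0438 to 0.70 (ELOVL7), -0.16 to 0.035 (ACSL1), -0.16 to 0.10 (ACSL4), -0.11 to 0.14 (PLIN3), -0.0421 to 0.39 (PNPLA2) and -0.22 to 0.14 (SREBF1). A group left with 1 library was assumed to vary like the other, and the cause of these shifts was not tested. Depth limited DGAT2, which had 15 to 44 counts a library.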

Other observations

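The shCON libraries differed more from each other than the shSPTLC2 libraries for 21 of the 34 genes (61.8%), beside 57.2% of all tested genes. The ratio of the higher to the lower library was over 1.3 for 2 genes in shSPTLC2 (5.88%, beside 18.8% of all tested genes) and 7 genes in shCON (20.6%, beside 24.2%), with a median of 1.08 in shSPTLC2 and 1.10 in shCON, beside 1.11 and 1.14 over all tested genes in the same groups. The widest ratios within shCON were those of ACACB (1.86), TECR (1.47), ELOVL7 (1.37), PNPLA2 (1.35) and LPIN3 (1.34). FASN and SREBF1 were higher in shCON replicate 1, with ratios of 1.31 and 1.29. Per length, the sum of the 5 elongases was 141 and 136 FPKM in the shSPTLC2 libraries and 142 and 139 FPKM in the shCON libraries, of which ELOVL1 and ELOVL5 made up nearly all.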
